A study of Mus musculus with 9 samples.

Results

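The nuclear genes for the subunits of the mitochondrial respiratory chain and of ATP synthase were examined in mouse colon epithelial cells. A gene was taken when it was a protein-coding row of the deposited gene table for DKO against Wt and its symbol belonged to the Ndufa, Ndufb, Ndufc, Ndufs, Ndufv, Sdh, Uqcr, Cox4 to Cox8 or Atp5 series. That gave 83 of 17511 genes, 36 of complex I, 4 of complex II, 8 of complex III, 18 of complex IV and 17 of complex V, the ATP synthase. The choice used symbols and not measured values. One of them, Cox5b-ps, is a pseudogene by its symbol although the table lists it as protein-coding.

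The libraries labelled DKO came from Cdx1-/-Cdx2f/f vill (+) mice and those labelled Wt from Cdx1-/-Cdx2f/f vill (-) mice, so the Cdx1 null and floxed Cdx2 alleles are shared by both groups, Wt included. The RNA-seq and ATAC-seq mice carry a Tamoxifen treated tag, with a stated course of 6 days, and each assay had 2 DKO and 2 Wt libraries. ATAC-seq marks open chromatin by transposase insertion. The Cdx2 ChIP-seq library, 1 library tagged untreated, came from the Wt genotype and has no replicate. Colon epithelium was enriched with EDTA, a chelator that releases the epithelial layer, and estimated reads per RNA library numbered 21197446 and 20069555 for DKO and 16403301 and 25494309 for Wt. The labels neither expand the vill mark nor state that replicates are separate animals, and p-values then reflect the spread between these libraries alone, which may be technical.

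Complexes I to IV sit in the inner mitochondrial membrane and pass electrons from NADH and succinate to oxygen, and most of them pump protons on the way. ATP synthase lets the protons flow back and makes ATP. Most subunits are encoded in the nucleus and imported, while a small set of membrane subunits of complexes I, III, IV and V is encoded in mitochondrial DNA. Colonocytes are known for oxidising butyrate from the gut bacteria, which feeds this chain.

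Of the 83 genes, 48 were called lower and 0 higher by the authors' deposited table at an adjusted p under 0.05, while 18.3% of all genes were called lower, 18.5% higher and 36.8% either way. The median log2 fold change was -0.55 over the 83 genes, a level 1.46-fold higher in Wt, beside -0.02 over all genes of the authors' deposited table. The fold change was below 0 in 77 of the 83 genes and above 0 in 6, against 8908 of all 17511 genes below 0 by the authors' deposited table. Most of the calls were smaller than 2-fold: the authors' deposited table called 8 of the 83 genes at least 2-fold lower, beside 13.2% of all genes. In the range of 1000 normalized counts or more, 43 of 74 subunit genes were called lower by the authors' deposited table at a median of -0.51, beside 20.3% of 4178 genes at a median of 0.08. The table gives 1 mean over the libraries for each gene and no gene value per library, so the overlap of the DKO and Wt libraries cannot be shown for any of these genes.

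**Figure D1:**
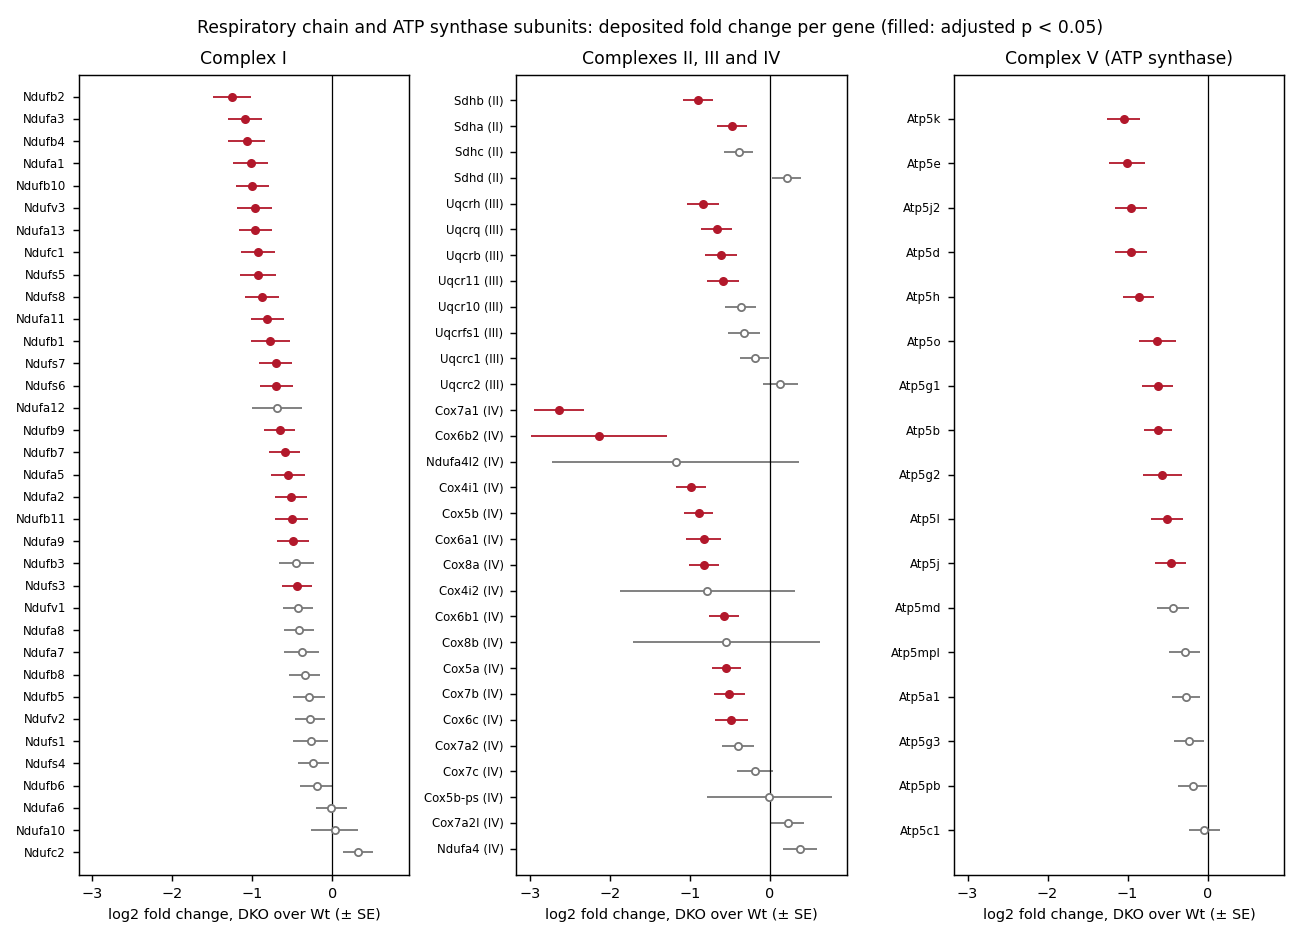
Log2 fold change, DKO over Wt, of the subunit genes by the authors' deposited table, with bars of 1 SE; filled red points passed an adjusted p under 0.05 and open grey points did not. Red points lie left of 0 in every complex, Cox7a1 and Cox6b2 stand furthest out at -2.64 and -2.14, and 6 genes lie right of 0, none of them called.

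Other cells than epithelium contributed to these libraries, and their markers moved with the labels. All 16 stromal, muscle and endothelial markers were called lower by the authors' deposited table (median log2 fold change -5.20, means of 44.7 to 2461 normalized counts), as were all 6 B and plasma cell markers (median -2.94). Of the 8 myeloid markers 5 were called higher and 1 lower by the authors' deposited table (median 1.08), of the 6 T cell markers 1 was called higher (median 0.19), and both red cell markers were called higher (median 1.46). Of 5 enteric neuron and glia markers 3 were called lower (median -4.47) by the authors' deposited table. General epithelial markers were split, 2 called higher and 2 lower of 7 by the authors' deposited table (median -0.20), whereas all 6 colonocyte markers (median -1.78) and all 7 goblet cell markers (median -4.39) were called lower. Every marker listed for these cell types had a row in the authors' deposited table, and none had a mean of 0. Cox6a2, listed with Cox7a1 and Cox8b as a muscle isoform of the respiratory chain, had no row there. In bulk RNA, fewer cells of a type and less RNA per cell cannot be told apart, and the part of these cell types in the subunit values was not tested. Cdx2 itself was not called by the authors' deposited table (mean of 9263 normalized counts, at -0.27 in log2, SE 0.21, adjusted p = 0.301). A value per gene does not show single exons, and loss of exons was not tested. Cdx1 was called lower by the authors' deposited table (-1.06, SE 0.23, adjusted p = 2.08e-05). Cdx1 is null by the label in both groups, yet its mean was 2595 normalized counts in the authors' deposited table, and whether these reads come from an intact transcript was not tested.

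Complex I, the NADH dehydrogenase through which most electrons enter, had 21 of its 36 genes called lower and 0 higher by the authors' deposited table, with a median of -0.54. Its accessory subunits, which surround and stabilise the enzyme, included the lowest values. Ndufb2 (chromosome 6, 39592565 to 39599843, GRCm38) was 2.38-fold higher in Wt by the authors' deposited table (on the log2 scale -1.25, SE 0.24, adjusted p = 5.27e-07). Ndufa3 (log2 fold change -1.09, SE 0.21), Ndufb4 (-1.07, SE 0.23) and Ndufa1 (-1.02, SE 0.22), small membrane-arm subunits, were the others called at least 2-fold lower by the authors' deposited table. Small subunit genes such as Ndufb4 have processed copies elsewhere in the genome, and how reads were shared out between copies is not known here. Across the 29 accessory subunits, the authors' deposited table called 18 lower at a median of -0.60. The 7 nuclear subunits of the catalytic core, which carry the flavin and iron-sulphur clusters or bind quinone, had 3 called lower and a median of -0.43 by the authors' deposited table.

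Within that core the members stood at different depths. Ndufs8 and Ndufs7, which hold the last iron-sulphur clusters before quinone, were called lower by the authors' deposited table at -0.88 (SE 0.21) and -0.71 (SE 0.21). Ndufs3 passed narrowly by the authors' deposited table at -0.44 (SE 0.19, adjusted p = 0.0457). Ndufv1, which binds NADH and flavin, had a mean of 6014 normalized counts and did not pass by the authors' deposited table (-0.43, SE 0.19, adjusted p = 0.0565). Ndufa9 was the least changed of the called accessory subunits by the authors' deposited table, at -0.49 (SE 0.20). The values above 0 in complex I belonged to Ndufc2 (0.32, SE 0.19, adjusted p = 0.171) and Ndufa10 (0.03, SE 0.29, adjusted p = 0.948) by the authors' deposited table. Whether single subunits differ from each other was not tested.

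Complex II, succinate dehydrogenase, also works in the citric acid cycle and has all its subunits encoded in the nucleus. Both catalytic subunits were called lower by the authors' deposited table, the iron-sulphur subunit Sdhb at -0.90 (SE 0.19, adjusted p = 9.09e-06) and the flavoprotein Sdha at -0.48 (SE 0.19, adjusted p = 0.0282). The membrane anchors were not called: Sdhc stood at -0.39 (SE 0.18, adjusted p = 0.0644) and Sdhd at 0.21 (SE 0.18, adjusted p = 0.374) by the authors' deposited table. Complex III, which hands electrons from ubiquinol to cytochrome c, had 4 of its 8 genes of the naming series called, all of them small subunits; Cyc1, outside that series, is given with the further genes. Of the 5 small subunits the authors' deposited table called 4 lower, Uqcrh, the hinge protein, at -0.84 (SE 0.20), Uqcrq at -0.67 (SE 0.20), Uqcrb at -0.61 (SE 0.20) and Uqcr11 at -0.59 (SE 0.20). The large core proteins Uqcrc1 (-0.19, SE 0.19) and Uqcrc2 (0.13, SE 0.22) and the Rieske iron-sulphur protein Uqcrfs1 (-0.33, SE 0.20) did not pass by the authors' deposited table.

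Complex IV, cytochrome c oxidase, reduces oxygen, and several of its subunits exist as tissue-specific isoforms from separate genes. Among its 18 genes 10 were called lower and 0 higher by the authors' deposited table, with a median of -0.56. The widely expressed isoforms had 8 of 12 called lower, among them Cox4i1, a regulatory subunit that binds ATP, at -0.99 (SE 0.18, adjusted p = 6.11e-07), Cox5b at -0.89 (SE 0.19), Cox6a1 at -0.83 (SE 0.22) and Cox8a at -0.83 (SE 0.19) by the authors' deposited table. Cox6b1 at -0.57 (SE 0.18), Cox5a at -0.54 (SE 0.18), Cox7b at -0.51 (SE 0.19) and Cox6c at -0.48 (SE 0.20) were the shallower calls of that set by the authors' deposited table.

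Cox7a1, the heart and muscle isoform of subunit VIIa (chromosome 7, 30184171 to 30186030), had the largest change of all 83 genes, and its level was 6.23-fold higher in Wt by the authors' deposited table (on the log2 scale -2.64, SE 0.31, adjusted p = 2.90e-16) at a mean of 396 normalized counts. Smooth muscle markers moved the same way by the authors' deposited table, with Myh11 at -7.80 (SE 0.42) and Acta2 at -8.11 (SE 0.35), and their part in the Cox7a1 value was not tested. Its widely expressed paralogue Cox7a2 did not pass (-0.40, SE 0.20, adjusted p = 0.0968), nor did Cox7a2l (0.22, SE 0.20, adjusted p = 0.416), a related protein that joins complexes III and IV into supercomplexes, by the authors' deposited table. Cox6b2, known as a testis isoform, was called lower at -2.14 (SE 0.85, adjusted p = 0.00594), but its mean was only 29.1 normalized counts by the authors' deposited table. The 3 other restricted isoforms had low counts by the authors' deposited table and were not called: Cox4i2 had a mean of 8.12 normalized counts, Ndufa4l2 of 7.52 and Cox8b of 3.78. Ndufa4, named for complex I but since placed in complex IV, had the highest fold change of the 83 genes by the authors' deposited table at 0.37 (SE 0.21), which did not pass (adjusted p = 0.143).

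ATP synthase had the largest share of calls among the complexes, 11 of 17 genes lower and 0 higher by the authors' deposited table, and all 17 fold changes were below 0 (median -0.57). In the catalytic F1 part, the beta subunit Atp5b, which holds the active sites, was called lower at -0.62 (SE 0.17, adjusted p = 0.00112), whereas the alpha subunit Atp5a1 was not (-0.27, SE 0.18, adjusted p = 0.222) by the authors' deposited table. The central stalk was likewise uneven by the authors' deposited table: Atp5d (-0.96, SE 0.20) was called lower, as was Atp5e, whose level was 50.1% lower in DKO (adjusted p = 3.40e-05), and the gamma subunit Atp5c1, the rotor axle, stood at -0.04 (SE 0.19, adjusted p = 0.906). Of the peripheral stalk, which holds the head still, Atp5h (-0.86, SE 0.19), Atp5o (-0.63, SE 0.23) and Atp5j (-0.46, SE 0.20) were called lower by the authors' deposited table. Atp5pb, also of that stalk, was not called by the authors' deposited table (-0.19, SE 0.18, adjusted p = 0.433). Atp5k, the small membrane subunit e that helps dimers form, was 2.07-fold higher in Wt by the authors' deposited table (on the log2 scale -1.05, SE 0.21, adjusted p = 1.96e-06). The proton-carrying c ring is encoded by 3 genes, and the authors' deposited table called Atp5g1 (-0.63, SE 0.19) and Atp5g2 (-0.57, SE 0.24) lower, but not Atp5g3 (-0.23, SE 0.19, adjusted p = 0.334).

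Few calls were made among subunits encoded in mitochondrial DNA. Of 13 such genes the authors' deposited table called 1 lower, mt-Co3 at -1.97 (SE 0.29), and 1 higher, mt-Nd5 at 1.10 (SE 0.35), with a median of -0.02. Their SEs ran from 0.24 to 0.53 by the authors' deposited table, against a median SE of 0.20 over the 83 genes. A change of equal size is less likely to pass at a larger SE, and the part of this in the counts was not tested. Of 5 nuclear genes listed beside the naming series the authors' deposited table gave 3 as lower: the complex I carrier protein Ndufab1 at -0.62 (SE 0.21), the complex III subunit cytochrome c1, Cyc1, at -0.64 (SE 0.20), and Micos10 at -0.64 (SE 0.21), which is a protein of the cristae junctions and no subunit of the chain. The difference between nuclear and mitochondrially encoded subunits was not tested.

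Assembly factors, which build the complexes without staying in them, were called in part. For complex IV 7 of 23 were lower and 2 higher past the threshold by the authors' deposited table, with Coa4 at -2.33 (SE 0.31), Coa3 at -1.58 (SE 0.24) and Pet100 at -1.33 (SE 0.27) furthest from 0. Complex I factors had 4 of 15 called lower and 0 higher by the authors' deposited table, with Tmem126b at -1.26 (SE 0.31), and complex III factors 2 of 6 lower, Uqcc2 at -1.24 (SE 0.31) and Bcs1l at -1.06 (SE 0.35). ATP synthase factors had 1 higher and 1 lower of 5 by the authors' deposited table, Atpaf1 at 0.72 (SE 0.28) and Fmc1 at -1.17 (SE 0.26). Complex II factors had 1 higher of 4 by the authors' deposited table, Sdhaf1 at 0.77 (SE 0.24). The complex IV counts are 30.4% lower and 8.70% higher, beside 18.3% and 18.5% of all genes by the authors' deposited table. The lower calls are 26.7% of the complex I list and 33.3% of the complex III list, with 0 higher in either. These lists are short, and no test of these shares was made.

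The enzymes that feed the chain were mostly not called. Of 18 pyruvate dehydrogenase and citric acid cycle genes the authors' deposited table called 3 higher, among them Pdha1, the pyruvate dehydrogenase subunit, at 1.36 (SE 0.18) and Dlat at 0.78 (SE 0.25), and 1 lower, Ogdh, of the oxoglutarate dehydrogenase complex, at -0.91 (SE 0.19), with 12 of 18 fold changes below 0 and a median of -0.14. The 3 are 16.7% of the list, near the share of all genes called higher. Coenzyme Q synthesis had 1 of 13 called lower by the authors' deposited table, Coq4 at -1.42 (SE 0.28). Of 26 protein import genes the authors' deposited table had 6 past the threshold as higher and 4 as lower, with the receptors Tomm70a at 1.08 (SE 0.22) and Tomm20 at 0.93 (SE 0.19) called higher and the channel subunit Timm17b called lower at -0.93 (SE 0.23). The 6 and the 4 are 23.1% and 15.4% of the import list, beside 18.5% and 18.3% of all genes. Of 78 mitochondrial ribosomal protein genes the authors' deposited table gave 15 as lower and 4 as higher (median -0.16), with Mrpl34 at -1.35 (SE 0.24) lowest. The 15 are 19.2% of that list, near the 18.3% of all genes called lower by the authors' deposited table. The 4 are 5.13%, against 18.5% of all genes called higher. Cytosolic ribosomal proteins, another set of short and abundant nuclear transcripts, had 1 gene called lower and 3 called higher among 76 by the authors' deposited table (median 0.05).

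**Figure D2:**
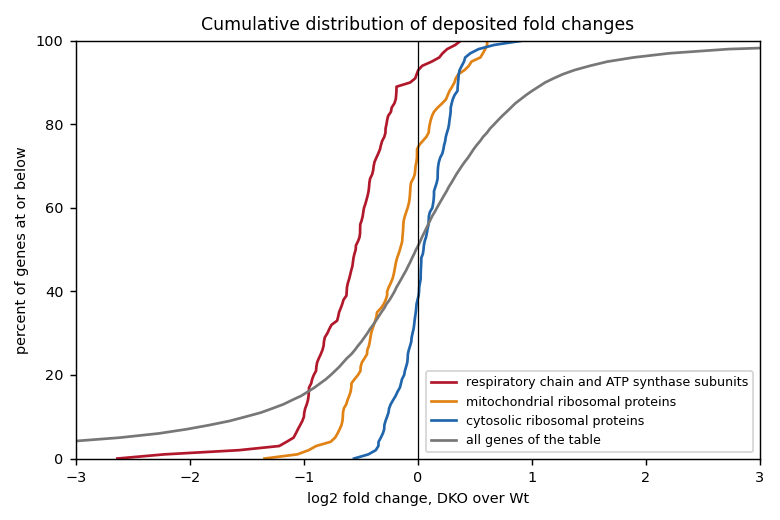
Percent of genes at or below each log2 fold change, DKO over Wt, by the authors' deposited table, for the 83 subunit genes, 78 mitochondrial ribosomal protein genes, 76 cytosolic ribosomal protein genes and all 17511 genes; values beyond 3 in size are outside the axis. The subunit curve lies left of the others over most of its length, with its median at -0.55, against -0.16, 0.05 and -0.02.

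Regulators of these genes were called in both directions, 5 higher and 6 lower of 18 by the authors' deposited table. These are 27.8% and 33.3% of the list, beside 18.5% and 18.3% of all genes. The coactivators of the PGC-1 family, which drive mitochondrial biogenesis, were all called lower by the authors' deposited table: Pprc1 at -1.22 (SE 0.30), Ppargc1a at -0.86 (SE 0.37) and Ppargc1b at -0.70 (SE 0.29). The mitochondrial RNA polymerase Polrmt (-0.98, SE 0.26), the DNA polymerase Polg (-0.93, SE 0.42) and the helicase Twnk (-0.83, SE 0.26) were the other 3 called lower by the authors' deposited table. Among transcription factors that bind respiratory gene promoters, Gabpa, the ETS factor also called NRF-2 alpha, was called higher at 2.11 (SE 0.42), as were its partner Gabpb1 at 0.71 (SE 0.26) and Yy1 at 1.17 (SE 0.21), by the authors' deposited table. Nrf1 (0.44, SE 0.23, adjusted p = 0.110), whose motif is described with the promoters, and Esrra (-0.43, SE 0.22, adjusted p = 0.107) did not pass by the authors' deposited table. Esrrg, an orphan nuclear receptor, was called higher at 1.42 (SE 0.71) with a mean of 53.3 normalized counts, and Tfb2m, a mitochondrial transcription factor, at 0.80 (SE 0.27), by the authors' deposited table. Genes singled out in this paragraph beyond the naming rule were chosen after their values were seen.

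Among subunit genes the fold changes lay lower in shorter genes. Of the 77 whose mean reached 500 normalized counts, the 26 with the shortest gene span (1154 to 5636 bp, introns included) had a median log2 fold change of -0.65 with 19 called lower, and the 25 of middle span (5716 to 8831 bp) a median of -0.63 with 19 called lower, by the authors' deposited table. The 26 longest (9029 to 100300 bp) had a median of -0.39 with 8 called lower by the authors' deposited table. Spearman's rho between span and fold change was 0.42 across these 77 genes and 0.18 across the 6547 genes of the table with the same minimum and a known span, a description across genes that share the same libraries. The part of transcript length or RNA quality in these values was not tested.

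The promoters of subunit genes were read next, since ATAC and Cdx2 peaks bear on them. RefSeq starts on GRCm38.p6, the assembly of mm10, were found for 68 of the 83 genes in windows from 250 bases before to 50 after each start (73 windows). The other 15 genes had no window in the table used here. The median ratio of observed to expected CpG was 0.815 over these genes and 0.718 over the 12078 genes of the table with a window. The bases before the start are given 5' to 3' for 7 genes: the member that fell furthest (Cox7a1) beside its widely expressed paralogue (Cox7a2), the complex I member that fell furthest (Ndufb2), 3 with a full NRF1 palindrome, of which Ndufa11 also lies under a Cdx2 peak, and Atp5g3, which holds an ERR and a CDX match. Capitals mark matches to the motifs named after the sequences.
Cox7a1, chr7:30183921-30184170, plus strand: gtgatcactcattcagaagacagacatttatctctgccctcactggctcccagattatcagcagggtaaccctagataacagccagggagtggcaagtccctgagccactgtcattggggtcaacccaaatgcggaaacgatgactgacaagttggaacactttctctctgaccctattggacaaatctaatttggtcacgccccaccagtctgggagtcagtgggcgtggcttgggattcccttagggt
Cox7a2, chr9:79759854-79760103, minus strand: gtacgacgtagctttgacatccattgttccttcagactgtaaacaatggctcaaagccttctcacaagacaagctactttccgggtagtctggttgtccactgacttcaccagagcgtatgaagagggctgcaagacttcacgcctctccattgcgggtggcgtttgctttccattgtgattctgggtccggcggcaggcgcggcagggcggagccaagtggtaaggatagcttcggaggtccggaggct
Ndufb2, chr6:39592315-39592564, plus strand: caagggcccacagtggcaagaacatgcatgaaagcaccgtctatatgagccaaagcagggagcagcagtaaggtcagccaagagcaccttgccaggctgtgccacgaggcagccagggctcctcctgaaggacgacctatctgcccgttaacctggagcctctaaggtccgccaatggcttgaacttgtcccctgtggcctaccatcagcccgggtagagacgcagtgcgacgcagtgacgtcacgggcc
Atp5k, chr5:108434400-108434649, minus strand: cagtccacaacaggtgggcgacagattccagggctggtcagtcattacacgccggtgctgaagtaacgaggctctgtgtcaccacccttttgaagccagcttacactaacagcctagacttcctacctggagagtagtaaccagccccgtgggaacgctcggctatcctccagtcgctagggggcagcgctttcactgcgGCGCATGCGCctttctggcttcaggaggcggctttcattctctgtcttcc
Cox6a1, chr5:115348959-115349208, minus strand: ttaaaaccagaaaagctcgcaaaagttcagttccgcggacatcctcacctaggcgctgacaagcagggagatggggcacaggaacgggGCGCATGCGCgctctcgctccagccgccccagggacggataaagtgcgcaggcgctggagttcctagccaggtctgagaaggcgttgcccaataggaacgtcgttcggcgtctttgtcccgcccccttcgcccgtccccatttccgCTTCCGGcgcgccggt
Ndufa11, chr17:56717512-56717761, plus strand: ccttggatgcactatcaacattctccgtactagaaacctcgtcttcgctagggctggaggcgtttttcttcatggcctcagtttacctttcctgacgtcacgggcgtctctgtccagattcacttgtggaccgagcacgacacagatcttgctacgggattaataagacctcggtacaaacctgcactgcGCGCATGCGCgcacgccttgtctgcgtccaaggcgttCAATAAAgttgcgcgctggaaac
Atp5g3, chr2:73911327-73911576, minus strand: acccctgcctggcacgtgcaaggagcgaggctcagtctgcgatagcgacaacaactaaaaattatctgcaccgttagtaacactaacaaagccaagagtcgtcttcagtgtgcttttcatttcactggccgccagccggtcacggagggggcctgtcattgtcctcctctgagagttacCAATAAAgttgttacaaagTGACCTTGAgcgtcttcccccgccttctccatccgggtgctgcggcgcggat

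Motifs of factors known to act on respiratory genes were searched on both strands of the whole windows as exact letters. The NRF1 palindrome, the full run of capitals in Atp5k, was found in 5 of 68 genes (7.35%, against 1.98% of the 12078 table genes and 1.07% of all 27025 RefSeq genes with a window). Its core GCATGCGC, which lies inside the palindrome, was found in 10 (14.7%, against 5.22% and 3.05%). In the capitals above, the palindrome covers bases 50 to 41 before the start of Atp5k, 162 to 153 before Cox6a1 and 60 to 51 before Ndufa11. The ETS/GABP motif CCGGAAG was found in 17 of 68 genes (against 17.8% and 9.93%), one of them Cox6a1, with a match on the opposite strand at bases 16 to 10. The YY1 motif AAGATGG was found in 11 (16.2%, against 7.80% and 7.28%), and only 1 of these had its match before the start. At least 1 of the NRF1 core, ETS/GABP, YY1 and ERR motifs was present in 33 of the 68 genes (48.5%), against 27.8% of table genes. No test of these shares was made, and a match is not a bound site.

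The ERR motif TCAAGGTCA was found in 2 genes, Atp5g3 and Sdhd (2.94%, against 0.331% of table genes and 0.466% of all), neither of which was called lower. The CDX motifs TTTATGG and TTTATTG were found in 2 and 5 genes (2.94% and 7.35%, against 2.21% and 3.41% of table genes), and TATAAA in 7 (10.3%, against 10.2%). Calls were spread over genes with and without a motif: the authors' deposited table called lower 7 of the 10 genes with the NRF1 core and 35 of the 58 without, 14 of 17 with the ETS/GABP motif and 28 of 51 without, and 7 of 11 with the YY1 motif and 35 of 57 without. Over all genes of the authors' deposited table, 15.4% of those with the NRF1 core and 19.6% of those without it were called lower. The shares over all genes by the authors' deposited table were 15.5% with and 20.3% without the ETS/GABP motif, and 20.1% with and 19.4% without the YY1 motif.

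**Figure D3:**
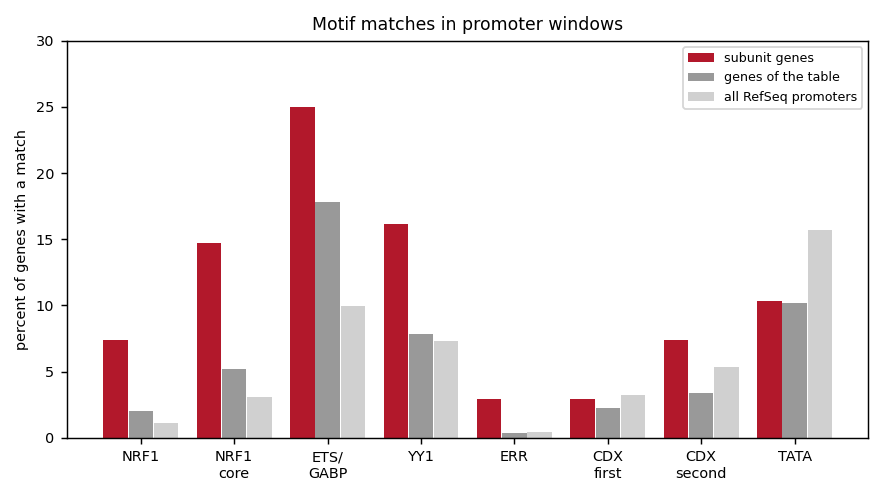
Percent of genes whose promoter window holds each motif on either strand, for 68 subunit genes (red), 12078 genes of the table (grey) and 27025 RefSeq genes (light grey); CDX first is TTTATGG and CDX second is TTTATTG. The ETS/GABP bar of the subunit genes is the highest, with 17 of 68 genes, and their NRF1 core and YY1 bars at 14.7% and 16.2% stand above the grey bars.

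The ATAC peak lists differed between the libraries well beyond these genes. The DKO lists held 40101 and 23961 peaks and the Wt lists 48163 and 53943, and a peak lay over the promoter of 15.9% and 33.3% of table genes in DKO, against 75.5% and 77.5% in Wt. For the subunit genes, 6 and 17 of 68 had a promoter peak in DKO replicates 1 and 2 (8.82% in the first), against 61 and 61 in Wt (89.7% in each). Among the 3296 genes with a window and a mean count of 1000 or more the shares were 19.2% and 40.7% in DKO, against 90.7% and 91.6% in Wt. In Wt the subunit promoters were open about as often as those of other abundant transcripts, and in both DKO libraries the share was lower than theirs, a difference that was not tested. The first DKO library had more peaks than the second but fewer over promoters.

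**Figure D4:**
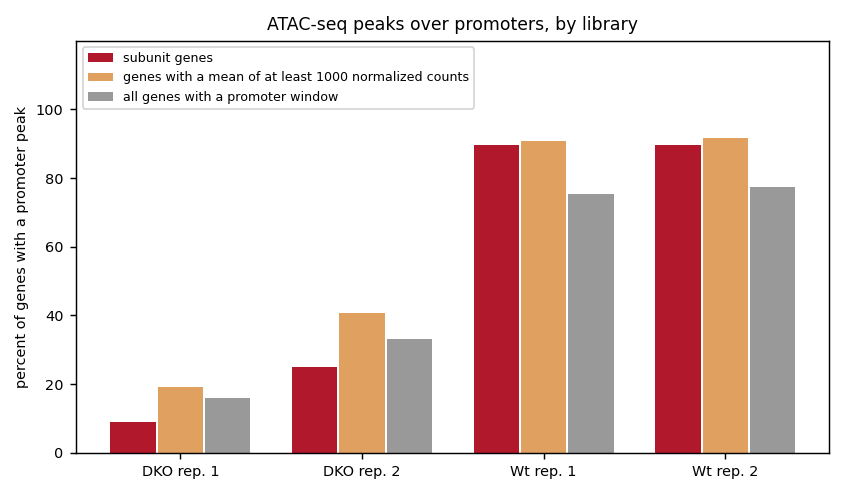
Percent of genes with an ATAC-seq peak over the promoter window in each library, for 68 subunit genes (red), 3296 genes with a mean count of 1000 or more (orange) and all 12078 genes with a window (grey). The DKO bars of the subunit genes stand for 6 and 17 of 68 genes and the Wt bars for 61 in each library.

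A peak in both Wt lists and in neither DKO list was found for 43 of the 68 subunit genes (63.2%), where 39.2% of all genes with a window and 46.8% of the 3296 abundant ones had that pattern. Another 11 genes had a peak in both Wt lists and 1 DKO list, 6 had one in all 4 lists and 6 in none. The 6 open in all 4 were Cox5a, Cox7a2, Ndufa5, Ndufb1, Ndufb5 and Ndufv2. Transcript calls were made under each of these patterns: the authors' deposited table called lower 27 of the 43 genes without a DKO peak (median log2 fold change -0.63), 6 of the 11 with 1 (median -0.44), 3 of the 6 open in all 4 (median -0.47) and 4 of the 6 with no peak in any list (median -0.59). Over all genes with a window it called lower 946 of 4730 without a DKO peak, 399 of 2629 with 1, 166 of 1544 open in all 4 and 597 of 2406 with no peak, again by the authors' deposited table.

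Peak height, given as the fold enrichment over background by the authors' caller, ranks peaks within a list, and DKO and Wt heights are set side by side without a comparison. At Cox7a2, whose promoter is printed above, the peak stood at 4.38 and 4.57 in DKO, against 16.6 and 14.9 in Wt. Its enrichment was the highest of the 68 genes in both Wt lists, and it was among the 6 with a peak in each DKO list. At Cox7a1 no peak was listed in either DKO library, against 4.33 and 4.73 in Wt. These lie below the medians of the subunit promoter peaks (7.06 and 8.11) and near the medians of all peaks in the Wt lists (4.95 and 4.88). Ndufb2 had no peak in DKO replicate 1 and 4.59 in replicate 2, against 7.06 and 8.97 in Wt. At Atp5k and Cox6a1, both with the NRF1 palindrome, no DKO peak was listed, against 5.33 and 6.31 in Wt for Atp5k and 7.37 and 7.58 in Wt for Cox6a1. Atp5g3 had no peak in DKO replicate 1 and 3.91 in replicate 2, against 8.39 and 8.11 in Wt.

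**Figure D5:**
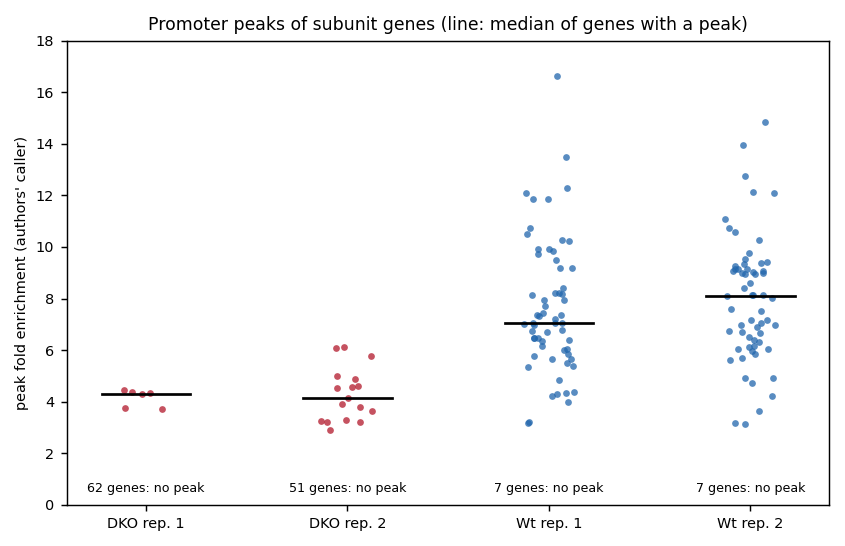
Fold enrichment of the promoter peak of each of the 68 subunit genes in each ATAC-seq library, as the authors' caller gave it, with a line at the median of the genes with a peak and the number without one at the bottom. DKO points are few and between 2.91 and 6.14, and Wt points run from 3.14 to 16.6.

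Cdx2 peaks were rare at promoters in general, those of the subunit genes included. Of the 5179 Cdx2 peaks, 1 had its summit within 1 kb of a subunit start (1 of 68 genes, where 3.49% of all genes with a window had one). Within 10 kb there were 5 genes (7.35%, where 10.4% of all had one) and within 50 kb 20 genes (29.4%, where 30.7% of all had one), shares near or below the background. The promoter case was Ndufa11, an accessory subunit of complex I (chromosome 17, start at 56717762), with a summit 80 bases before the start in a peak of 56717631 to 56717917. Its fold enrichment was 4.10 and its -log10 q 3.14, which a minimum of 5 would leave out. The part of the peak before the start, printed above, holds the NRF1 palindrome and a CDX match at bases 23 to 17. The rest of the peak, from the start onward, is not printed. ATAC gave no peak over that promoter in DKO, against 3.17 and 3.14 in Wt, and the transcript was called lower by the authors' deposited table (at -0.82 in log2, SE 0.21, adjusted p = 0.000332).

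The other 4 genes within 10 kb were Cox5b (3.94 kb), Cox6b1 (6.04 kb), Atp5h (6.71 kb) and Atp5e (7.71 kb), and none of their Cdx2 peaks overlapped an ATAC peak in any of the 4 libraries. All 5 genes within 10 kb were called lower by the authors' deposited table (median log2 fold change -0.86), as were 37 of the 63 farther away (median -0.54), with 25.6% and 18.7% of all genes called lower within and beyond that distance. At 50 kb, 14 of 20 were called lower within it and 28 of 48 beyond it by the authors' deposited table, with 23.0% and 17.8% of all genes called lower within and beyond. Cox7a1 had its nearest summit 14.2 kb upstream, in a Cdx2 peak of fold enrichment 3.51. The -log10 q of that peak was only 1.89, which a minimum of 5 would leave out. The Cdx2 peak overlapped no ATAC peak in DKO, against ATAC peaks of 8.67 and 10.7 in Wt. No test was made of these counts, and 1 ChIP library without a replicate limits what they show.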

How the data were processed

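The RNA libraries come as estimated counts for each Ensembl transcript, written by Salmon (1.3.0 in the submitters' processing notes) and deposited by the authors, per the file headers. They were used for library totals alone, because nothing used here pairs these transcript IDs with genes, so the planned gene-level edgeR test could not be made. Gene values are therefore the authors': a mean normalized count, a signal per gene over the libraries, with log2 fold changes (DKO over Wt), their SE, p-values and Benjamini-Hochberg adjusted p, deposited in 1 table by the authors and, by its columns, made with DESeq2, which the processing notes name. Fold over SE returned the deposited p within 0.01 in log10 for 1751 of 17511 genes and 6 of the 83 members, so the folds appear to be shrunken and those of low genes understate the change. Peak files gave a fold enrichment ratio and a -log10 q for each peak, per library, deposited by the authors (MACS2 in the processing notes). Not given in the sources used here are the aligner settings, the transposase shift and the ChIP control.

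Computed here, with scipy 1.17.1, pandas 2.3.3 and numpy 2.4.6 under Python 3.11.15, were counts and medians over members, readjusted p, overlaps of at least 1 bp between peaks and promoter windows, distances from summits to starts, and motif matches. The scripts were tested on simulated data. Genes were linked to RefSeq GRCm38.p6 by symbol, or by Entrez ID where RefSeq lists the symbol as a synonym, for 16331 of 17511 genes and all 83 members. Named were called members of at least 2-fold, the 6 highest and 6 lowest called, the 2 with the highest mean in each complex, paralogue sets, and up to 3 called genes per other list with a mean of at least 50. Further members, and regulators, were named for their role after their values were seen. The members and lists were chosen with earlier results of these data known, so no list was tested. The values of 1 member are not reported here singly, in the text or in the plot of fold changes by gene.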

Additional observations from a re-analysis of the deposited data

How the results depend on the processing

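The count of 48 members called lower in the authors' deposited table was 35 at an adjusted p under 0.01, 49 over protein-coding genes alone, and 50 and 48 over genes with a mean of at least 50 and 1000 normalized counts with p readjusted, the last chosen after seeing the data. Holm adjustment left 13 and the 2-fold requirement 8, the last beside 13.2% of all genes. The shares of all genes at the other settings are not given here, so how far all calls moved with these counts is not shown. Centring on the median of genes with a mean of at least 50 (a shift of 0.07) or on cytosolic ribosomal proteins (0.05) put the member median at -0.62 and -0.60, with 78 of 83 genes below 0 under either and no complex median reversed. Members with a promoter peak in both Wt lists and neither DKO list numbered 34 with 1000 bases either side of the start, 46 at a -log10 q of at least 5, 34 with an overlap of 150 bp, and 43 to 54 with 1 ATAC library left out. All genes moved too: that pattern held for 32.7%, 51.5% and 33.6% of genes with a window at these window, q and overlap settings. With 1 ATAC library left out it held for 40.7% to 58.6% of them, highest without DKO replicate 2. At a -log10 q of at least 5, Cdx2 summits within 1, 10 and 50 kb fell to 0, 3 and 13 members. The last 2 are 4.41% and 19.1% of members with a window. Over all genes with a window the shares at that minimum were 1.72%, 7.17% and 23.7%. Before the start only, the YY1 motif was left in 1 member and the ERR motif in 1 (1.47% each, against 4.94% and 0.306% of table genes).

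No paired analysis was possible because nothing used here pairs the transcripts of the per-library RNA files with genes, and the gene table holds 1 comparison with no value per library; for the same reason the DESeq2 refit, the left-out RNA libraries and the replicate block were not run. Depth limits Cox4i2, Cox8b, Ndufa4l2, Cox5b-ps and Cox6b2, with means under 50 normalized counts.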
